A study of Mus musculus with 6 samples.

Results

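The genes described here are 39 components of the DNA replication machinery, taken by gene symbol from a table of 56691 gene rows, and all 39 were found and all 39 passed the filter on low counts. They fall into 4 genes of origin licensing, 12 of the replicative helicase, 6 of the polymerases and primase, 6 of the sliding clamp and its loader, 4 of single-strand DNA binding and Okazaki fragment maturation, 4 of nucleotide supply and 3 whose activity is coupled to S phase. RNA was sequenced from primary cardiomyocytes of neonatal mouse hearts in 3 libraries of cells given Ad5-cTNT-HMGB2, an adenovirus that expresses HMGB2 from the cardiac troponin T promoter (called HMGB2 here), and in 3 libraries of cells given the Ad5-cTNT vector (called vector). Both groups therefore carry a virus, and no group without one is compared here. HMGB2 is a chromatin protein that binds and bends DNA, and the title of the series names cardiomyocyte proliferation. No label gives the dose of virus, the time of collection, the mouse strain or whether the libraries come from separate cultures, so p-values here reflect a spread that may be technical.

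Replication begins when the origin recognition complex, with CDC6 and CDT1, loads the ring of MCM2 to MCM7 onto DNA before S phase. CDC45 and the GINS complex then join the ring to make the active helicase, primase and polymerase alpha lay down primers, the RFC complex loads the PCNA clamp, and polymerases delta and epsilon copy the strands. Most of these genes are transcribed by E2F factors around the start of S phase, and their transcripts decline in the mouse heart after birth as cardiomyocytes leave the cell cycle.

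Hmgb2 itself, which checks the labels, stood at 175, 196 and 182 CPM (counts scaled to library size, adjusted by the trimmed mean of M values) in the HMGB2 libraries, against 46.8, 44.8 and 36.3 CPM in the vector libraries. This count does not separate RNA of the viral copy and RNA of the chromosomal gene. The libraries held 12498215 to 16618365 counts, 0.199% to 0.208% of them from the 39 genes with HMGB2 and 0.177% to 0.190% with the vector. A member had at least 64 counts in any library. The libraries HMGB2 3 and vector 1 stood apart from the rest on the second principal component (-10.5 and -14.2, against 4.37 to 8.47 for the other 4). Of 8 cardiomyocyte markers, 6 rose and none is at 0, and their summed level was 26617 to 26869 CPM with HMGB2, against 16270 to 17390 CPM with the vector. Of 8 fibroblast markers 2 fell, with a sum of 4276 to 4378 CPM with HMGB2 and 4820 to 4923 CPM with the vector. Of 6 endothelial markers 2 fell, with a sum of 2127 to 2174 CPM with HMGB2 and 2460 to 2494 CPM with the vector. Of 8 macrophage markers 4 fell, with a sum of 71.1 to 82.5 CPM with HMGB2 and 95.4 to 130 CPM with the vector. Smooth muscle and pericyte markers (1 of 6 fell) summed to 329 to 418 CPM with HMGB2 and 357 to 472 CPM with the vector, and epicardial markers (0 of 4 called) to 103 to 109 CPM with HMGB2 and 98.4 to 107 CPM with the vector. No marker of these lists was at 0, whereas 5 erythroid markers held 47 counts in all 6 libraries together, with Hba-a2 and Hbb-bt at 0. The cultures thus hold RNA of other heart cells beside cardiomyocytes, a replication transcript cannot be assigned to any of them, and the part of the shift in markers in the values below was not tested. More cells of a type and more RNA per cell cannot be told apart in such bulk libraries.

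To show the start regions of genes that the results turn on, 5 promoters are printed from RefSeq (GRCm38.p6), each from 250 bases before to 50 bases after the start, on the strand of the gene. Gins3 had the largest rise on the log2 scale, and Mcm5 rose. Pola2 rose with a promoter that holds none of the words searched, Tyms fell, and Mcm6 holds the most such words but was not called. Capitals mark the E2F-type words TTTGGCGC, TTTCCCGC, TTTGCCGC and TTTCGCGC on either strand, which can overlap each other.
Gins3, chr8:95633309-95633608, plus strand: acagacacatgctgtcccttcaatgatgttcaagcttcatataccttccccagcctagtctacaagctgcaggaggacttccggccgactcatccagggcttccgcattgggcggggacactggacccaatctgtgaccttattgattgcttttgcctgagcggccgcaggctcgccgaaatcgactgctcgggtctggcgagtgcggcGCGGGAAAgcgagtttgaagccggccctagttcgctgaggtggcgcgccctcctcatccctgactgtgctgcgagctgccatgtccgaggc
Mcm5, chr8:75109259-75109558, plus strand: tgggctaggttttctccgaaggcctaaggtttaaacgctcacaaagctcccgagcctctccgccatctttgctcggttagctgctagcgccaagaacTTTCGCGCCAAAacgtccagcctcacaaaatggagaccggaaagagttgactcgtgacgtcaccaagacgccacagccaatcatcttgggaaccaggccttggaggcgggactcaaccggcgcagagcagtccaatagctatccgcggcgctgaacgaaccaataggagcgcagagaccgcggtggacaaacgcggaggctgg
Mcm6, chr1:128359656-128359955, minus strand: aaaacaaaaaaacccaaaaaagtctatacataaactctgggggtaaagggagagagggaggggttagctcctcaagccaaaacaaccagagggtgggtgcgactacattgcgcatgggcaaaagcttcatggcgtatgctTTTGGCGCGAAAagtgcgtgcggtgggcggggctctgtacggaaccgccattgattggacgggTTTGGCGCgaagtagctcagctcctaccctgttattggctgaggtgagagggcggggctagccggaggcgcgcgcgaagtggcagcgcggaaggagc
Pola2, chr19:5964157-5964456, minus strand: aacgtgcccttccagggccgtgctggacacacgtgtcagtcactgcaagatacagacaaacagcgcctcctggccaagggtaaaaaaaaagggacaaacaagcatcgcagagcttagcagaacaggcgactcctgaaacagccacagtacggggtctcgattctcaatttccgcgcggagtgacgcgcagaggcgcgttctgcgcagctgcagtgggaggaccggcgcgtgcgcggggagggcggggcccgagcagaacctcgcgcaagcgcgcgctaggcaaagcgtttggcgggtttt
Tyms, chr5:30073576-30073875, minus strand: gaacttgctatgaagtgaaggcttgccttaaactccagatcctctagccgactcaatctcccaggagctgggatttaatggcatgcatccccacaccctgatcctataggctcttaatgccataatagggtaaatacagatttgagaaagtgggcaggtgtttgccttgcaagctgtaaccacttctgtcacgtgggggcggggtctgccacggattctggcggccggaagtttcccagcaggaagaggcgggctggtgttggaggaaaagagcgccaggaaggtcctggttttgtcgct
A RefSeq promoter was held for 32 of the 39 members. At least 1 E2F-type word was found for 14 of these 32 genes (43.8%), against 2.61% of 27025 genes with a promoter in the table. The words were chosen after a look at matches, so these shares are a description and the contrast between them is no test. The word of Gins3 begins at -41 from the start, those of Mcm5 at -153 and -149, where they overlap, and those of Mcm6 between -110 and -47. Among members that rose, 3 of 8 had a word (Gins3, Mcm5 and Lig1), and among members not called, 11 of 23. The shorter word CCAAT, bound by NF-Y, was found on either strand for 22 of the 32 members (68.8%), against 41.1% of all genes. Matches are a description of the letters in these windows.

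With HMGB2, 8 of the 39 members rose (Gins3, Mcm5, Pola2, Rfc1, Rfc4, Rpa1, Lig1 and Rrm1), 2 fell (Mcm4 and Tyms) and 29 missed the threshold of an adjusted p under 0.05 in edgeR. The called share of 25.6% is close to that of all 15429 genes tested, of which 25.2% were called. In the upward direction 20.5% of members and 14.4% of all genes were called, and in the downward direction 5.13% of members and 10.8% of all genes. The median log2 fold change of the members was 0.13, against -0.0022 for all genes, and it was positive for 29 of 39 members, against 49.8% of all genes. All 3 HMGB2 libraries lay above all 3 vector libraries for 15 members (38.5%), against 21.6% of all genes, and below them for 2 (5.13%), against 18.9%. The members were chosen with earlier results of these data known, so these contrasts with all genes are a description and no test. No member that missed the threshold had a log2 fold change outside -0.17 to 0.34, and the 95% confidence intervals of all 29 lay between -0.51 and 0.63, which leaves room for modest differences. The number of members called moved with the library left out, and the share of all genes called moved with it. Without HMGB2 1, 5 members rose and 1 fell (9.94% and 5.49% of all genes), without HMGB2 2 it was 3 and 1 (10.2% and 5.67%), and without HMGB2 3 it was 5 and 2 (12.6% and 8.97%). Without vector 1, 11 members rose and 1 fell (16.0% and 12.4% of all genes), without vector 2 it was 6 and 1 (10.1% and 6.16%), and without vector 3 it was 3 and 1 (10.7% and 7.04%). The share of members that rose was 7.69% without HMGB2 2 or without vector 3, below that of all genes. It was above that of all genes without HMGB2 1 (12.8%), HMGB2 3 (12.8%), vector 1 (28.2%) or vector 2 (15.4%). Gins3, Pola2, Rpa1 and Tyms were called in all 12 alternatives tried, while Mcm4 and Mcm5 were called in 4 of 12.

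**Figure D1:**
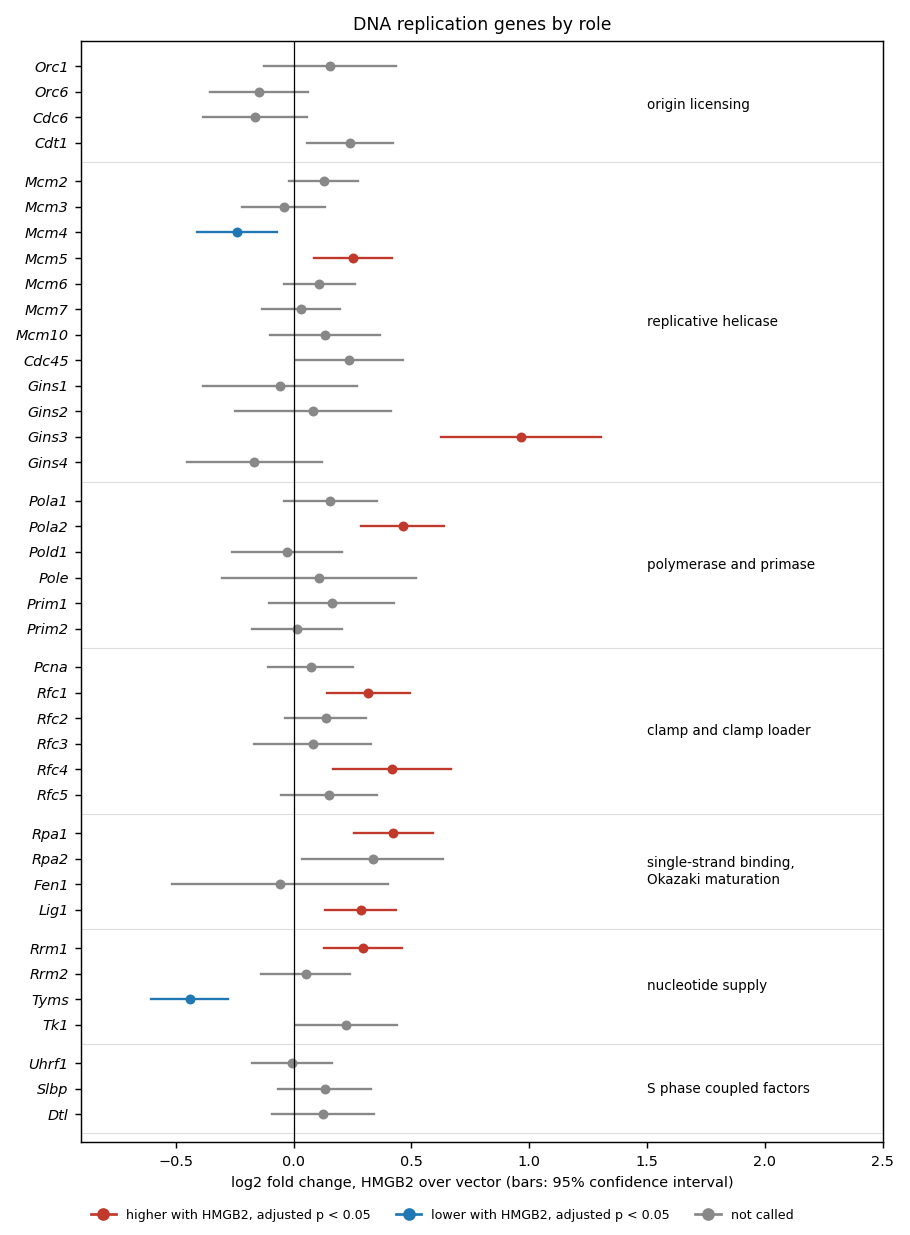
Log2 fold change of HMGB2 over vector for the 39 members, grouped by role, with 95% confidence intervals as bars; red marks the 8 that rose, blue the 2 that fell and grey the 29 not called. Gins3 stands farthest from 0 at 0.96, and the other members lie within 0.5 of 0.

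None of the 4 genes of origin licensing was called. Orc6, a small subunit of the origin recognition complex and the most abundant of the 4 in CPM, had 33.5, 35.2 and 37.8 CPM in HMGB2 libraries, against 42.2, 35.6 and 40.1 CPM in vector libraries. The ranges overlap (log2 fold change -0.15, adjusted p = 0.296 in edgeR). Orc1, an ATP-binding subunit of the complex, averaged 18.6 ± 0.528 CPM with HMGB2 and 16.7 ± 2.74 CPM with the vector (SD, n = 3 each). Cdc6, the loader ATPase, averaged 17.1 ± 1.21 CPM with HMGB2 and 19.2 ± 0.867 CPM with the vector. Cdt1, the loading factor that brings the MCM ring to origins, came nearest to the threshold. It had 28.5, 27.8 and 28.3 CPM in HMGB2 libraries, against 24.2, 24.2 and 23.2 CPM in vector libraries. The groups do not overlap, but the log2 fold change of 0.24 (SE 0.08) did not pass (adjusted p = 0.0568 in edgeR), and its call depended on the setting. It passed without both HMGB2 3 and vector 1 (adjusted p = 0.0348) and with FPKM and limma (0.0321), and it did not pass in the other 10 alternatives, with an adjusted p of 0.0660 to 0.193, the highest with no filter on low counts. The summed level of the 4 genes was 99.4 ± 1.01 CPM with HMGB2 and 99.1 ± 1.34 CPM with the vector. Within it Orc1 and Cdt1 had higher means with HMGB2, and Orc6 and Cdc6 lower ones. The sums of the other roles were higher with HMGB2. In CPM they were 659 against 641 (helicase), 187 against 168 (polymerases and primase) and 259 against 226 (clamp and loader). The rest were 276 against 214 (single-strand binding and Okazaki maturation), 382 against 356 (nucleotide supply) and 156 against 149 (S phase).

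The 6 subunits of the MCM ring moved unequally. Mcm5 (GRCm38 chromosome 8, 75109569 to 75128439) had 79.6, 77.8 and 82.1 CPM in HMGB2 libraries, against 71.3, 66.2 and 63.7 CPM in vector libraries, and rose by 0.25 in log2 units (SE 0.07, adjusted p = 0.0324 in edgeR). Mcm4 (chromosome 16, 15623897 to 15637400) had 102, 101 and 112 CPM in HMGB2 libraries, against 131, 123 and 118 CPM in vector libraries, and fell by 0.24 in log2 units (SE 0.08, adjusted p = 0.0453 in edgeR). Neither gene's groups overlap. These calls were close to the threshold. Mcm5 lost its call without HMGB2 1 (adjusted p = 0.0937), HMGB2 2 (0.0788), HMGB2 3 (0.0751), vector 2 (0.108) or vector 3 (0.123). Mcm4 lost its call without HMGB2 1 (adjusted p = 0.173), HMGB2 2 (0.175), vector 1 (0.0695), vector 2 (0.114) or vector 3 (0.0660).

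The ratio of these genes within a library does not depend on the scaling between libraries. The pair was picked for its calls in opposite directions, so a differing ratio follows from the same values and is no further support. FPKM are fragments scaled by library size and gene length. On this scale Mcm5 stood to Mcm4 as 0.700, 0.692 and 0.657 in HMGB2 libraries, against 0.488, 0.484 and 0.483 in vector libraries. The length used is about that of all exons of a gene together, 4426 bases for Mcm7, whose longest coding transcript has 2962. Shares and orders of different genes by FPKM, here and below, depend on that length and may not be those of transcript numbers. Mcm4 made up 22.3 ± 0.577% of the summed FPKM of the 6 subunits with HMGB2 and 26.5 ± 0.201% with the vector (SD, n = 3 each), where an equal share would be 16.7%. The share of Mcm5 was 15.3 ± 0.200% with HMGB2 and 12.8 ± 0.116% with the vector. Like the ratio, these shares follow from the values behind the calls. In every library Mcm4 was the largest share and Mcm2 the smallest, at 8.83 ± 0.195% with HMGB2 and 8.11 ± 0.290% with the vector. By mean CPM Mcm2 was not the lowest, at 80.5 with HMGB2 and 73.7 with the vector, against 73.3 and 71.7 for Mcm7. Among the other subunits, Mcm6 had the highest mean CPM of the helicase genes over all libraries. It had 124, 121 and 129 CPM in HMGB2 libraries, against 119, 116 and 112 CPM in vector libraries, which do not overlap but did not pass (log2 fold change 0.11, adjusted p = 0.277 in edgeR). Mcm2 (0.13), Mcm3 (-0.042) and Mcm7 (0.032) had small log2 fold changes that did not pass.

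Gins3 had the largest log2 fold change of all members. It encodes the PSF3 subunit of GINS, which joins CDC45 and the MCM ring in the active helicase. Gins3 (ENSMUSG00000031669, GRCm38 chromosome 8, 95633453 to 95645060, plus strand) had 12.5, 13.4 and 14.4 CPM in HMGB2 libraries, against 8.10, 5.48 and 7.08 CPM in vector libraries. All HMGB2 libraries lay well above all vector libraries, with a fold of 1.95 (log2 fold change 0.96, SE 0.15, adjusted p = 0.00156 in edgeR). The log2 fold change was 0.82 to 1.09 over the alternatives, lowest without vector 2.

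The other 3 GINS genes were not called. Gins1 had a log2 fold change of -0.059 (95% confidence interval -0.39 to 0.27), Gins2 of 0.081 (-0.25 to 0.41) and Gins4 of -0.17 (-0.45 to 0.12), and each of these intervals lies below the interval of Gins3, which is 0.62 to 1.31, although the difference between the genes was not tested. Of the summed FPKM of the 4 genes, Gins3 made up 18.6%, 21.3% and 20.7% in HMGB2 libraries, against 11.2%, 8.86% and 12.3% in vector libraries. Gins4 was the largest share in each library, at 47.8 ± 3.37% with HMGB2 and 56.1 ± 3.64% with the vector (SD, n = 3 each). A larger share of Gins3 follows from the counts behind its call and lowers the shares of the others. These shares are therefore no further support. In the order of FPKM levels over the 39 members, Gins3 was 28th with HMGB2 and 38th with the vector. Exons of Gins2 overlap those of Gse1 on the other strand over 67.3% of their length, and the strand setting of the counting is not given, so that the counts of Gins2 are uncertain. Cdc45, the helicase cofactor, averaged 20.5 ± 0.451 CPM with HMGB2 and 17.4 ± 1.72 CPM with the vector (SD, n = 3 each). Its log2 fold change of 0.24 did not pass (adjusted p = 0.123 in edgeR), but did without vector 1 (0.0386). Mcm10, which helps to activate the helicase, had 24.0, 21.6 and 20.2 CPM in HMGB2 libraries, against 18.7, 19.7 and 21.6 CPM in vector libraries, which overlap.

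**Figure D2:**
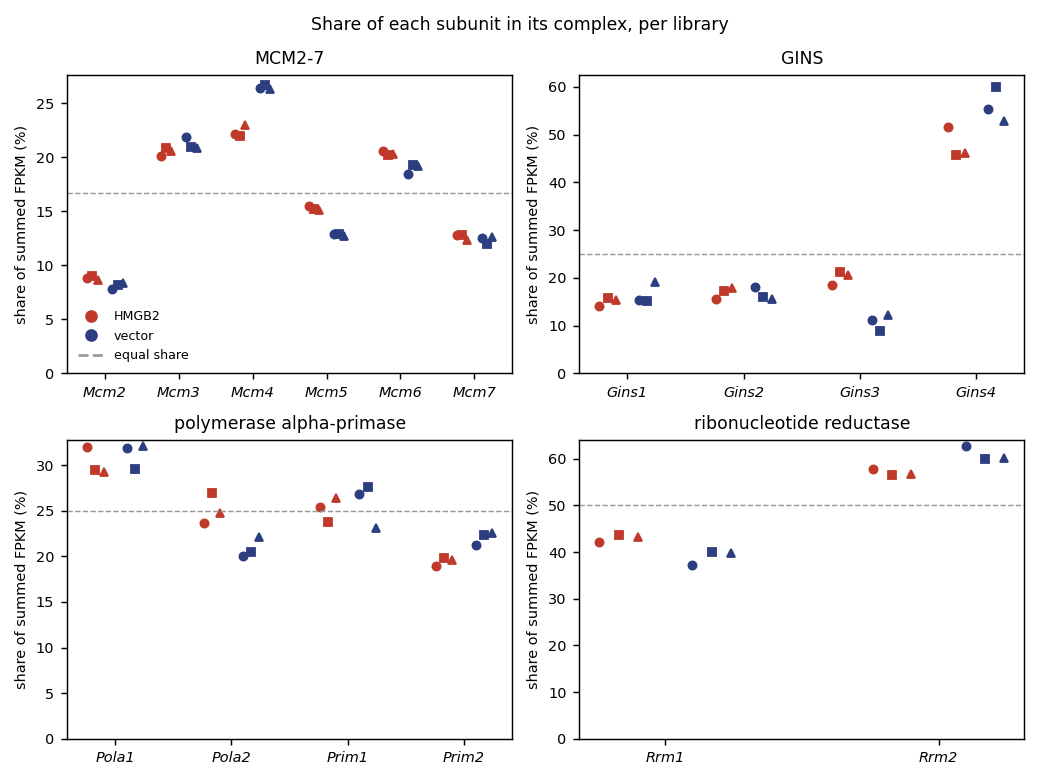
Share of each subunit in the summed FPKM of its complex, in percent, in every library (red, HMGB2; blue, vector; marker shape, replicate number; dashed line, an equal share). Gins3 takes 18.6% to 21.3% of the GINS sum with HMGB2, against 8.86% to 12.3% with the vector, and the share of Mcm4 is lower and that of Mcm5 higher with HMGB2. Shares of called genes follow from the counts behind their calls and are no further support.

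Of the polymerase and primase genes, Pola2 rose and the other 5 were not called. Pola2 encodes the regulatory B subunit that joins the catalytic subunit of polymerase alpha (GRCm38 chromosome 19, 5940542 to 5964202, minus strand). It had 37.6, 39.6 and 37.2 CPM in HMGB2 libraries, against 27.0, 27.5 and 28.4 CPM in vector libraries. The groups are far apart relative to their spread, with a fold of 1.38 (log2 fold change 0.46, SE 0.08, adjusted p = 0.00244 in edgeR). Pola1, the catalytic subunit and the most abundant of these 6 genes in CPM, had 53.9, 45.8 and 46.7 CPM in HMGB2 libraries, against 45.7, 42.1 and 43.6 CPM in vector libraries. Its lowest HMGB2 library lay just above its highest vector library, and the log2 fold change of 0.16 did not pass (adjusted p = 0.235 in edgeR), although it did without both HMGB2 3 and vector 1 (0.0290). The FPKM of Pola2 was 0.834 ± 0.0891 of that of Pola1 with HMGB2 and 0.671 ± 0.0368 of it with the vector (SD, n = 3 each). This ratio rests on the counts behind the call of Pola2 and is no further support. The primase genes Prim1 and Prim2 had log2 fold changes of 0.16 and 0.015, and Pold1, the catalytic subunit of polymerase delta, of -0.027. Pole, the catalytic subunit of polymerase epsilon, varied widely within groups, with 37.8, 37.0 and 29.1 CPM in HMGB2 libraries, against 22.8, 39.4 and 34.1 CPM in vector libraries. The low values are those of HMGB2 3 and vector 1.

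Among the clamp and its loader, Rfc1 and Rfc4 rose while Pcna did not pass. Rfc1, the large subunit of the clamp loader, had 98.1, 103 and 91.3 CPM in HMGB2 libraries, against 76.0, 83.8 and 74.7 CPM in vector libraries, a rise of 0.32 in log2 units (SE 0.08, adjusted p = 0.0173 in edgeR). Rfc4, a small subunit, had 14.2, 16.9 and 16.8 CPM in HMGB2 libraries, against 12.3, 11.3 and 12.2 CPM in vector libraries, a rise of 0.42 (SE 0.11, adjusted p = 0.0231 in edgeR). Neither gene's groups overlap. The call of Rfc1 was lost without HMGB2 1 (adjusted p = 0.0666), HMGB2 2 (0.0844) or vector 3 (0.0725), and that of Rfc4 without HMGB2 2 (0.0904), HMGB2 3 (0.0645), vector 2 (0.0888) or vector 3 (0.0604). Of the exon bases of Rfc4, 12.7% overlap Eif4a2 on the other strand, a gene at 268 ± 8.83 CPM with HMGB2 and 285 ± 22.6 CPM with the vector (log2 fold change -0.089, adjusted p = 0.453 in edgeR). Since the strand setting of the counting is not given, the counts of Rfc4 are uncertain, and with them its call. The same limit holds for other members whose exons overlap a gene on the other strand. These are Rfc2 (15.1%), Orc1 (10.8%), Rfc5 (10.7%), Slbp (7.80%), Mcm7 (7.25% with Ap4m1), Orc6 (6.93%), Cdc45 (5.96%) and Lig1 (5.79%). Tk1 (1.60%) and Pole (0.699%) overlap less.

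The remaining loader subunits Rfc2, Rfc3 and Rfc5 had log2 fold changes of 0.14, 0.081 and 0.15 that did not pass. Pcna, the clamp itself, had 60.7, 66.0 and 69.6 CPM in HMGB2 libraries, against 63.1, 64.6 and 58.8 CPM in vector libraries. These ranges overlap, with a log2 fold change of 0.074 (95% confidence interval -0.11 to 0.25, adjusted p = 0.553 in edgeR). Part of the Pcna transcript (51.4%) is 99.2% identical to the copy Pcna-ps2, which took 25.5 ± 2.95 CPM with HMGB2 and 23.5 ± 4.39 CPM with the vector (SD, n = 3 each), so reads of the pair may be counted for each other. Summed over both, a choice made after the values were seen, the difference was 0.086 in log2 units (SE 0.09, adjusted p = 0.515 in edgeR).

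Rpa1 and Lig1 rose among the genes of single-strand binding and Okazaki fragment maturation. Rpa1 encodes the large subunit of replication protein A, which coats single-stranded DNA in replication and in repair (GRCm38 chromosome 11, 75298166 to 75348324, minus strand). It had 175, 171 and 181 CPM in HMGB2 libraries, against 135, 137 and 121 CPM in vector libraries. The groups are clearly apart, with a fold of 1.34 (log2 fold change 0.42, SE 0.07, adjusted p = 0.00291 in edgeR). By FPKM, Rpa1 was the highest of the 39 members with HMGB2 (31.6 ± 1.12) and the 6th with the vector (23.3 ± 1.54; SD, n = 3 each). Its partner Rpa2 had 25.8, 25.4 and 31.4 CPM in HMGB2 libraries, against 25.7, 19.3 and 20.5 CPM in vector libraries. The groups overlap and the log2 fold change of 0.34 (SE 0.13) did not pass (adjusted p = 0.0967 in edgeR), but without vector 1 it was 0.47 and did (0.0113). Rpa1 made up 77.4 ± 1.66% of the summed FPKM of the pair with HMGB2 and 76.3 ± 2.79% with the vector, a difference within the spread.

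Lig1, the ligase that seals Okazaki fragments, had 67.9, 65.6 and 65.8 CPM in HMGB2 libraries, against 54.3, 55.7 and 53.7 CPM in vector libraries. It rose by 0.28 in log2 units (SE 0.07, adjusted p = 0.0139 in edgeR) with no overlap of the groups, and the call was lost without HMGB2 1 (adjusted p = 0.0643), HMGB2 2 (0.0513) or vector 3 (0.0567). Fen1, the nuclease that trims the flaps of these fragments, was among the lowest members, at 6.05 ± 0.922 CPM with HMGB2 and 6.28 ± 1.51 CPM with the vector (SD, n = 3 each). Exons of Gm10143 on the other strand overlap 78.8% of the exon bases of Fen1, and how the counting treated reads in the overlap is not given, so that this low level is uncertain.

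**Figure D3:**
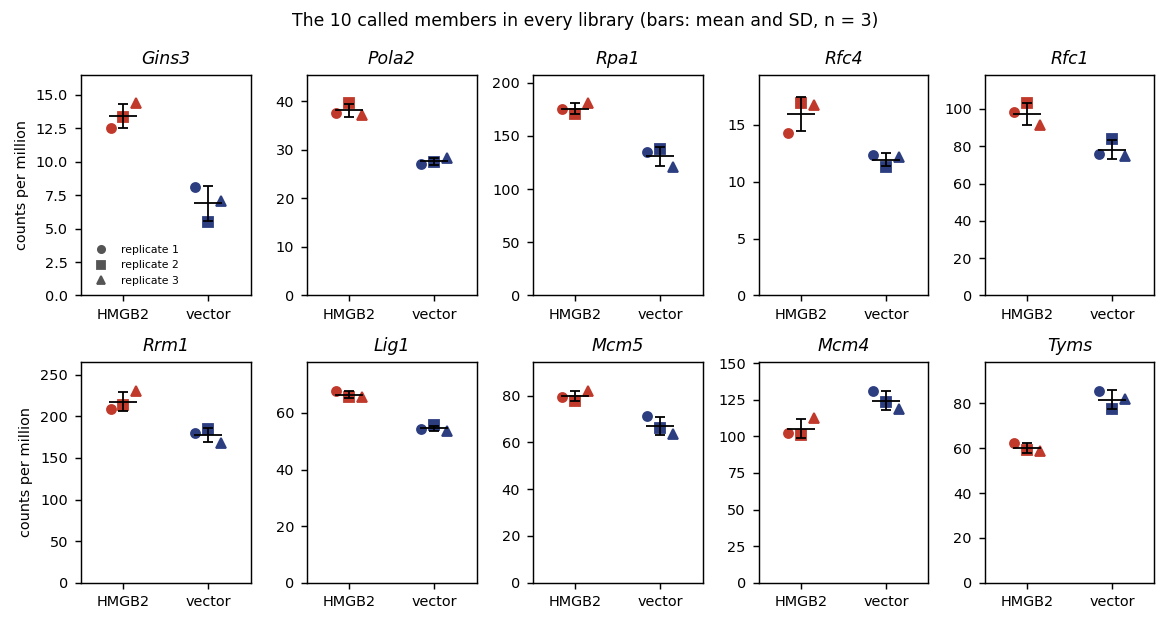
Level in CPM of the 10 called members in every library (red, HMGB2; blue, vector; marker shape, replicate number), with mean and SD over n = 3; each axis starts at 0. The 2 groups do not overlap for any of the 10 genes. Gins3 shows the largest difference relative to its level, at 12.5 to 14.4 CPM with HMGB2 and 5.48 to 8.10 CPM with the vector.

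The genes of nucleotide supply moved in different directions. Tyms, thymidylate synthase, makes dTMP from dUMP (GRCm38 chromosome 5, 30058202 to 30073617, minus strand). It had 62.5, 59.2 and 58.7 CPM in HMGB2 libraries, against 85.7, 77.3 and 82.0 CPM in vector libraries. All HMGB2 libraries lay below all vector libraries, and Tyms fell by 0.44 in log2 units (SE 0.07, adjusted p = 0.0021 in edgeR). Rrm1, the large subunit of ribonucleotide reductase, which makes deoxyribonucleotides, had 209, 213 and 231 CPM in HMGB2 libraries, against 180, 185 and 168 CPM in vector libraries. It rose by 0.29 (SE 0.07, adjusted p = 0.0178 in edgeR), and lost its call without HMGB2 2 (adjusted p = 0.0574), HMGB2 3 (0.0509) or vector 3 (0.0764).

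The small subunit Rrm2, whose level is known to follow S phase, had 72.0, 69.5 and 76.0 CPM in HMGB2 libraries, against 76.3, 69.6 and 63.9 CPM in vector libraries, which overlap (log2 fold change 0.052, 95% confidence interval -0.14 to 0.24). Rrm1 made up 42.2%, 43.6% and 43.3% of the summed FPKM of the pair in HMGB2 libraries, against 37.2%, 40.1% and 39.8% in vector libraries. This share rests on the counts behind the call of Rrm1 and is no further support. Tk1, the thymidine kinase of the salvage route to dTMP, averaged 31.5 ± 1.54 CPM with HMGB2 and 27.0 ± 2.47 CPM with the vector (SD, n = 3 each). Its log2 fold change of 0.22 did not pass (adjusted p = 0.119 in edgeR), but did without vector 1 (0.0327). The FPKM of Rrm1 stood to that of Tyms as 1.85, 1.99 and 2.18 in HMGB2 libraries, against 1.16, 1.32 and 1.13 in vector libraries. Since Rrm1 rose and Tyms fell without overlap of their groups, a higher ratio with HMGB2 follows and is no further result.

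None of the 3 genes coupled to S phase was called. Uhrf1, which reads hemimethylated DNA behind the fork, had 76.2, 71.4 and 67.5 CPM in HMGB2 libraries, against 70.2, 75.2 and 70.5 CPM in vector libraries. Its log2 fold change of -0.0055 had a 95% confidence interval of -0.18 to 0.16. Slbp, the protein that binds the stem-loop of histone mRNAs, and Dtl, the substrate receptor through which CDT1 is degraded in S phase, had log2 fold changes of 0.13 each that did not pass.

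In HMGB2 3 and vector 1 longer members tended to lie lower relative to their group, with exceptions such as Rrm1. In vector 1, Pole lay 0.68 below the mean of the other 2 vector libraries on the log2 CPM scale and Gins2 0.47 above it. In HMGB2 3, Pole lay 0.36 below and Rpa2 0.29 above the others of the group. Over the 39 members the deviation had a Spearman's rho of -0.44 in HMGB2 3 and -0.55 in vector 1 with the gene length behind the FPKM values. The rho was 0.42 in HMGB2 1, 0.11 in HMGB2 2, 0.21 in vector 2 and 0.33 in vector 3. Each deviation is set against the other libraries of the group, so these values are linked. They are a description over genes that share these libraries. Without both of these libraries 13 members rose (33.3%, against 20.9% of all genes) and 2 fell (5.13%, against 19.1%), the added ones being Cdt1, Cdc45, Pola1, Rpa2 and Tk1. The part of gene length in the differences between groups was not tested.

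**Figure D4:**
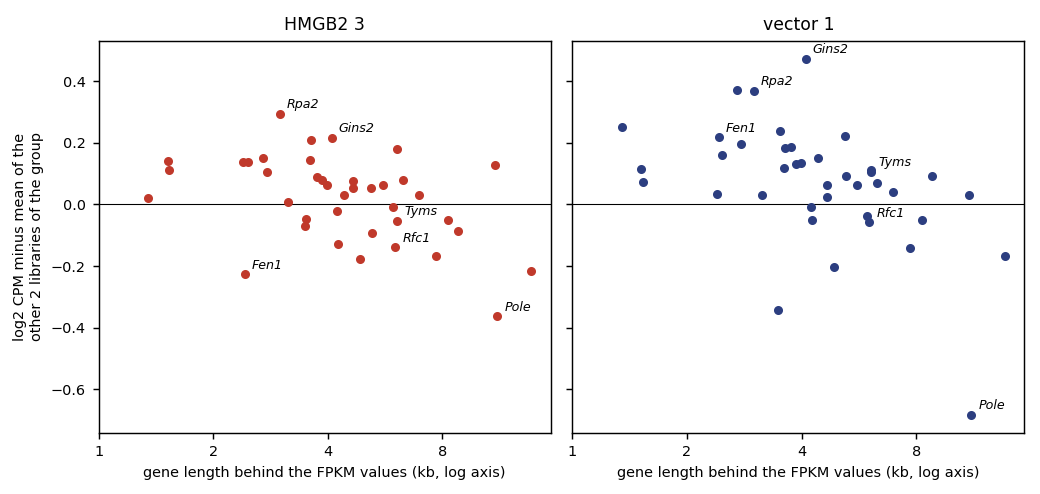
Deviation of each member from the mean of the other 2 libraries of its group (log2 CPM) in HMGB2 3 and in vector 1, against the gene length behind the FPKM values in kilobases on a log axis; each point is 1 gene. Pole and Dtl lie low and Rpa2 lies high in both libraries, whereas Rrm1, which is nearly as long as Pole, lies at 0.13 in HMGB2 3 and 0.030 in vector 1.

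Beyond the 39 members, 46 further replication genes were examined as a list. Of these 3 rose, 4 fell and 39 did not pass, a called share of 15.2% against 25.2% of all genes, with a median log2 fold change of -0.017. The log2 fold change was positive for 22 of the 46. All HMGB2 libraries lay above all vector libraries for 10.9% of them (21.6% of all genes) and below for 15.2% (18.9%). Gmnn, which encodes geminin, the inhibitor of CDT1, had 25.2, 24.2 and 26.5 CPM in HMGB2 libraries, against 19.6, 16.4 and 14.7 CPM in vector libraries. It rose by 0.59 in log2 units (SE 0.12, adjusted p = 0.00561 in edgeR), and was called whichever library was left out. The FPKM of Cdt1 stood to that of Gmnn as 0.521 ± 0.0194 with HMGB2 and 0.669 ± 0.0825 with the vector (SD, n = 3 each). This ratio rests on the counts behind the call of Gmnn and is no further support. The nuclease and helicase gene Dna2 and the histone chaperone gene Asf1b rose by 0.44 and 0.36 on the log2 scale (adjusted p = 0.0200 and 0.0251 in edgeR).

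Among those that fell, Dctd, the deaminase that supplies dUMP to thymidylate synthase, had 12.6, 12.2 and 13.3 CPM in HMGB2 libraries, against 19.4, 18.1 and 17.9 CPM in vector libraries. It fell by 0.54 in log2 units (SE 0.10, adjusted p = 0.00346 in edgeR) and, like Tyms, was called whichever library was left out. Orc2, a subunit of the origin recognition complex, fell by 0.33 (adjusted p = 0.0187 in edgeR), Dbf4, the activator of the CDC7 kinase that fires origins, by 0.28 (0.0259), and Nme1, a nucleoside diphosphate kinase, by 0.52 (0.0280). Leaving out 1 library removed the calls of Dna2 (without HMGB2 1, adjusted p = 0.0895), Asf1b (HMGB2 1, 0.0824; HMGB2 3, 0.0680; vector 2, 0.0800; vector 3, 0.0944), Orc2 (HMGB2 1, 0.0611; HMGB2 2, 0.0918; vector 2, 0.0775; vector 3, 0.0669), Dbf4 (HMGB2 1, 0.0975; HMGB2 2, 0.114; vector 3, 0.0736) and Nme1 (HMGB2 1, 0.116; HMGB2 2, 0.108; vector 2, 0.0575). The count that rose became 1 without HMGB2 1. The count that fell became 1 without HMGB2 1 or HMGB2 2 and 2 without vector 2 or vector 3. The share of all genes called moved in the same way. Of all genes, 9.94% rose without HMGB2 1, against 14.4% with all libraries. The share that fell was 5.49% without HMGB2 1, 5.67% without HMGB2 2, 6.16% without vector 2 and 7.04% without vector 3, against 10.8% with all libraries.

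Other size factors, another tool, no filter and FPKM values each changed the number of members that rose by at most 1. In all 6 libraries, 8 members rose and 2 fell with RLE size factors (14.0% and 11.5% of all genes), 7 and 2 with DESeq2 (13.0% and 10.5%), and 8 and 1 with no filter on low counts (7.80% and 5.99%). With FPKM and limma 9 rose and 1 fell (13.7% and 7.96%), and Cdt1 was the one added. The 8 that rose with no filter were not the same genes as in the main test. Mcm5 lost its call there (adjusted p = 0.0728 in edgeR) and Rpa2 gained one (0.0347).

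**Figure D5:**
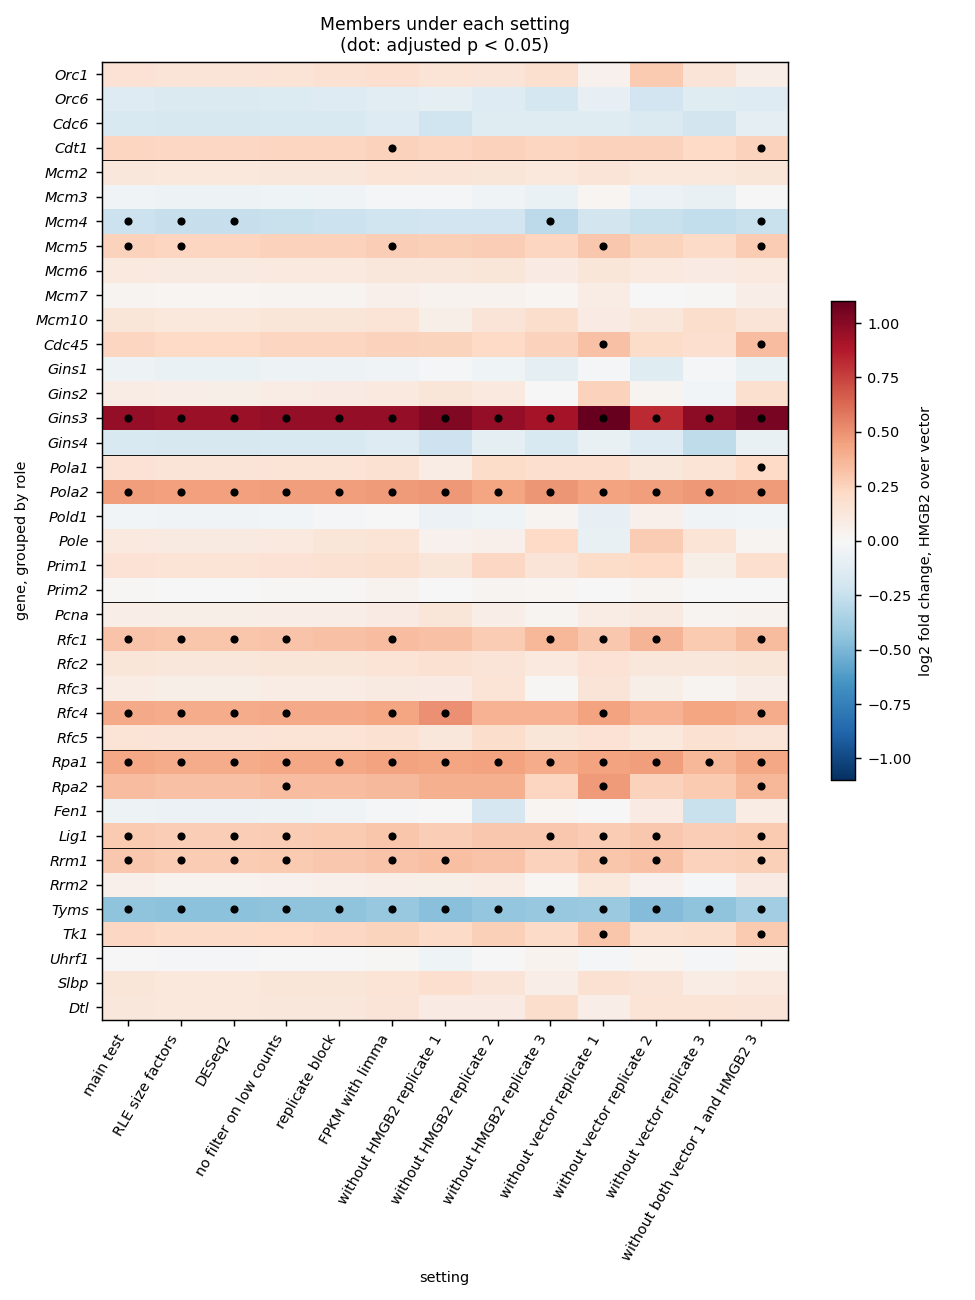
Log2 fold change of HMGB2 over vector (colour, red higher and blue lower with HMGB2) of the 39 members under the main test and 12 alternatives, with a dot where the adjusted p was under 0.05. Gins3, Pola2, Rpa1 and Tyms have a dot in every column, and the calls of Mcm4 and Mcm5 are present in few.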

How the data were processed

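Per the labels' protocols, total RNA of 6 libraries, 3 HMGB2 and 3 vector, was prepared with a VAHTS Universal V5 kit. Tools named in the submitters' processing notes are HISAT2 2.2.1, StringTie 1.3.3b, HTSeq 0.6.1 and FastQC 0.10.1, with the build mm10 and no roles. The authors deposited raw counts per gene and FPKM values. The gene length implied by a count and its FPKM varied by under 1% between libraries in 2159 genes of FPKM 20 or more, so both tables hold the same counts. Column names were matched to samples by group abbreviation and replicate number.

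Genes were filtered with filterByExpr (minimum count 10, minimum total 15), which left 15429, scaled by TMM and tested with a robust quasi-likelihood fit in edgeR 4.0.16 (R 4.3.3), with group as the only term and Benjamini-Hochberg adjustment over all genes tested. Standard errors were obtained by dividing the size of a log2 fold change by the root of its F statistic. For 3 against 3 libraries an exact permutation test cannot go below 0.1, so none is given. Alternatives used DESeq2 1.42.0, limma 3.58.1 on log2(FPKM + 0.1), other size factors, no filter, a replicate block and left-out libraries. The edgeR test was also run on simulated counts, drawn independently for each library. Such counts lack the pattern that HMGB2 3 and vector 1 share, so that run cannot show how the test behaves under it. No result of that run is used here. Each library was counted as 1 sample, as the labels give it, since none repeated another of its group within counting noise. The chi-square over its degrees of freedom was 1.99 between HMGB2 1 and HMGB2 2 and 2.77 between vector 2 and vector 3, against 14.3 to 20.6 for pairs within a group that hold HMGB2 3 or vector 1. This does not show whether the libraries are biological or technical replicates.

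Positions come from GENCODE M21 (GRCm38) through the Ensembl identifier, which matched for all 39 members; the deposited positions are the same for 0 of them and are not used here. Library totals were 12498215 to 16618365 counts. The words searched in promoters were chosen after a look at matches. Copies were found with BLAST (at least 95% identity over at least 10% of the transcript). The members and lists were chosen with earlier results of these data known. Values in every library are given for called members, for the member of each role with the highest CPM, and for those whose call changed in most alternatives; others shown were chosen after their values were seen.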

Additional observations from a re-analysis of the deposited data

How the results depend on the processing

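The 8 members that rose numbered 3 with the replicate block and 13 without both HMGB2 3 and vector 1, and 3 to 11 with 1 library left out. The 2 that fell numbered 1 without a filter on low counts, with the replicate block and with FPKM and limma, and 1 to 2 with 1 library left out. Of the other replication genes, 3 rose, against 1 with the replicate block, 6 without both libraries and 1 to 4 with 1 library left out. Of these, 4 fell, against 1 with the replicate block, 2 with FPKM and limma and 1 to 4 with 1 library left out. All genes called numbered 3886, against 2213 with the replicate block, 6251 without both libraries and 2433 to 4486 with 1 library left out. For the replicate block the shares of all genes that rose and that fell were not worked out. Its counts by direction are therefore not set against all genes. The labels do not say whether libraries of the same number belong together. Deviations of same-numbered libraries correlated at -0.32, 0.23 and -0.37, and HMGB2 3 correlated best with vector 1 (0.52). The deviations within a group are linked, so these values cannot show whether the block is a pairing. The log2 fold change turned in sign for 8 members, none of them called: without both libraries for Fen1 (0.082) and Uhrf1 (0.023), with FPKM for Uhrf1 (0.014), and with 1 library left out for Mcm3 (-0.086 to 0.023), Mcm7 (-0.0028 to 0.084), Gins2 (-0.030 to 0.25), Pold1 (-0.092 to 0.055), Pole (-0.084 to 0.28), Fen1 (-0.24 to 0.088), Rrm2 (-0.011 to 0.12) and Uhrf1 (-0.046 to 0.039). The cause was not tested. Scaling by RLE changed no call of a member, and DESeq2 lost that of Mcm5 (adjusted p = 0.0696). The lowest members had 64 to 89 counts in a library, which limits how small a change can be seen in them.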
